A study of Mus musculus with 2 samples.

Results

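Paneth cells and goblet cells of the mouse jejunal crypt were compared within 2 miR-375 knockout (375KO) mice. The members were the cells that the authors annotated as Paneth (78 in replicate 1 and 54 in replicate 2, 132 in all) or as goblet (277 and 138, 415 in all), so the comparison covers 547 of the 3275 annotated cells. Each replicate is 1 male mouse, 12 months old, of a B6 albino background (strain C57BL6/2J in the labels) in which miR-375 was deleted by CRISPR in every tissue. According to the paper, the deletion was made in hybrid embryos of FVB and B6 mice, and the null mice were then backcrossed to B6 albino. Crypt cells were freed with dispase and each mouse gave 1 droplet library that reads the 3′ ends of RNA. Both replicates share the deletion and no wild-type sample was analysed here, so no value below measures an effect of miR-375. Each class was summed within a mouse, which gave 2 Paneth sums and 2 goblet sums, paired by mouse.

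Paneth cells sit at the crypt base, where they release alpha-defensins, lysozyme and other antimicrobial proteins from large granules and give Wnt, EGF and Notch signals to the neighbouring stem cells. Goblet cells lie higher along the crypt and villus and secrete gel-forming mucin with the small proteins that pack and shape mucus. Both descend from secretory progenitors that need the transcription factor Atoh1, and both carry a dense endoplasmic reticulum (ER) for protein export.

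The libraries held 44017234 and 22163354 UMIs (unique molecular identifiers, counted once per RNA molecule that was captured) in their annotated cells, and the 2 libraries shared no cell barcode among them. Markers of both classes followed the labels. The authors named the clusters by scores of known marker genes, so these marker levels restate the annotation. All 6 Paneth markers and all 6 goblet markers examined were highest in CPM (UMIs of a gene scaled to a common UMI total) in their own class among the annotated types, in both mice. Markers of other cell types were low beside those of the own class. The 4 tuft cell markers had no UMI in Paneth cells, and 5 enterocyte markers summed to 9.96 and 0 CPM in Paneth cells and to 103 and 65.3 CPM in goblet cells. The 5 stem cell markers summed to 52.9 and 52.7 CPM in Paneth cells and to 233 and 128 CPM in goblet cells. Lymphocyte markers differed between the mice in Paneth cells. They summed to 95.3 CPM in the Paneth cells of replicate 2 against 0.284 CPM in replicate 1 and 6.35 and 7.60 CPM in goblet cells, and 50 of the 54 Paneth cells of replicate 2 held such a UMI. Most of it was Ccl5, a T cell chemokine, with 357 of 416 UMIs, and 1 cell held 30.3% of the 416. Ccl5 was higher in replicate 2 in other types too, at 105 CPM in enterocytes, 57.3 in stem cells and 33.0 in goblet progenitors. In replicate 1 these types had 19.5, 0 and 1.86 CPM, while goblet cells went the other way (4.49 CPM in replicate 1 and 1.34 in replicate 2). The source of Ccl5 was not tested.

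The sequences before the start sites of 4 genes are shown. Alpha-defensins fill the Paneth sums, and of those shown Defa22 had 41.5 and 0 CPM in goblet sums and Gm15284 79.8 and 0. Lyz1 and Muc2 have UMIs in both classes of both mice. This does not hold for the whole family, since Defa24 had 3440 and 3684 CPM in goblet sums, above Lyz1 with 702 and 978. The 250 bases before each start are given 5′ to 3′ on the gene's strand, from RefSeq on build GRCm38.p6. Capitals mark the TATA box motif TATAAA and the motif CTTTGA, a core to which TCF factors of the Wnt pathway can bind, on either strand (the latter can appear as its reverse complement). Defa22 (chr8:21162027-21162276, plus strand) and Gm15284 (chr8:21134400-21134649, plus strand, Defa30 in RefSeq) are alpha-defensins, Lyz1 (chr10:117292869-117293118, minus strand) encodes Paneth lysozyme and Muc2 (chr7:141690090-141690339, plus strand) encodes the gel-forming mucin.
Defa22: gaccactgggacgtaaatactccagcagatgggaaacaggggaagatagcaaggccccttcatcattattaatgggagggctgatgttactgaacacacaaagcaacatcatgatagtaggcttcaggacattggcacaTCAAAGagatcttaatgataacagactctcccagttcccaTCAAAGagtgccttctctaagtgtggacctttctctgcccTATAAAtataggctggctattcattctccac
Gm15284: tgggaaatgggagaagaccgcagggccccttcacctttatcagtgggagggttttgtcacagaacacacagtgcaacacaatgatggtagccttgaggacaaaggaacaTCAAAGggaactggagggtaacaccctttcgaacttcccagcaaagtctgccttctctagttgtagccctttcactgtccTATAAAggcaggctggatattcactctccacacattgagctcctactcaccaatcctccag
Lyz1: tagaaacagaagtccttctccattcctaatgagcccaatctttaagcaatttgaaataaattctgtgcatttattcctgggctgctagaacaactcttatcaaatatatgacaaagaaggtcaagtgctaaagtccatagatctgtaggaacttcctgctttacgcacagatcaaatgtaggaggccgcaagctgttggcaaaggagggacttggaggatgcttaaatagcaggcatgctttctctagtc
Muc2: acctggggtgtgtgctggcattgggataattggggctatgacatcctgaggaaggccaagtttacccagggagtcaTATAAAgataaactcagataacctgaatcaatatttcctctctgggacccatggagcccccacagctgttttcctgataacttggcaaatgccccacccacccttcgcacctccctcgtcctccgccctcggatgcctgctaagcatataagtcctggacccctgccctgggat
Of 28 members of the alpha-defensin family found in the matrices, 16 had a promoter in the table, which spans 250 bases before to 50 bases after each start. TATAAA was present in 15 of these 16 and in 13.6% of 32851 background promoters, and CTTTGA in 13 of 16 and in 16.0% of the background. The background took the promoters of all chromosomes but 1. An E-box of the letters CAGCTG was present in 1 of 16 and in 16.3% of the background. Neither TATAAA nor CTTTGA was in the Lyz1 window, and Muc2 held TATAAA without CTTTGA. In Muc2 the TATAAA lay 168 bases before the start, farther than the 25 bases in Defa22 and 55 in Gm15284. Family promoters are copies of each other, so they are not independent: those of Defa21 and Defa22 were identical over all 300 bases. A match is a string of letters, not a shown binding site.

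A few transcripts filled Paneth cells. The 10 leading Paneth genes held 81.5% of the UMIs of Paneth cells in replicate 1 and 81.9% in replicate 2, and 3 and 4 genes were enough to reach 50% of them. The 10 leading goblet genes held 25.6% and 23.8% of goblet UMIs, and 91 and 89 genes were needed for 50%. Exact (Clopper-Pearson) 95% intervals of these shares cover counting error only, and the widest, for goblet cells of replicate 2, ran from 23.78% to 23.89%. Defa24 alone made up 35.8% and 29.7% of Paneth UMIs, or 16126 and 23988 UMIs per cell. It was followed by Gm15284 (8.79% and 11.8%) and Lyz1 (9.13% and 6.57%). Other leading genes included the defensins AY761184, Defa22, Gm14851, Defa21 and Defa20, and Itln1, a lectin that binds microbial glycans. Goblet cells were led by Zg16, a lectin of the mucus (8.35% and 5.75%), and Tff3, a trefoil peptide (4.25% and 6.72%). Spink4, a protease inhibitor, and Agr2, a disulfide isomerase needed for mucin folding, came next. Lgals2, Lgals4, Fcgbp and 3 mitochondrially encoded genes completed the 10. The leading Paneth genes took 0.555% and 0.517% of goblet UMIs, and the leading goblet genes 0.985% and 1.20% of Paneth UMIs.

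**Figure D1:**
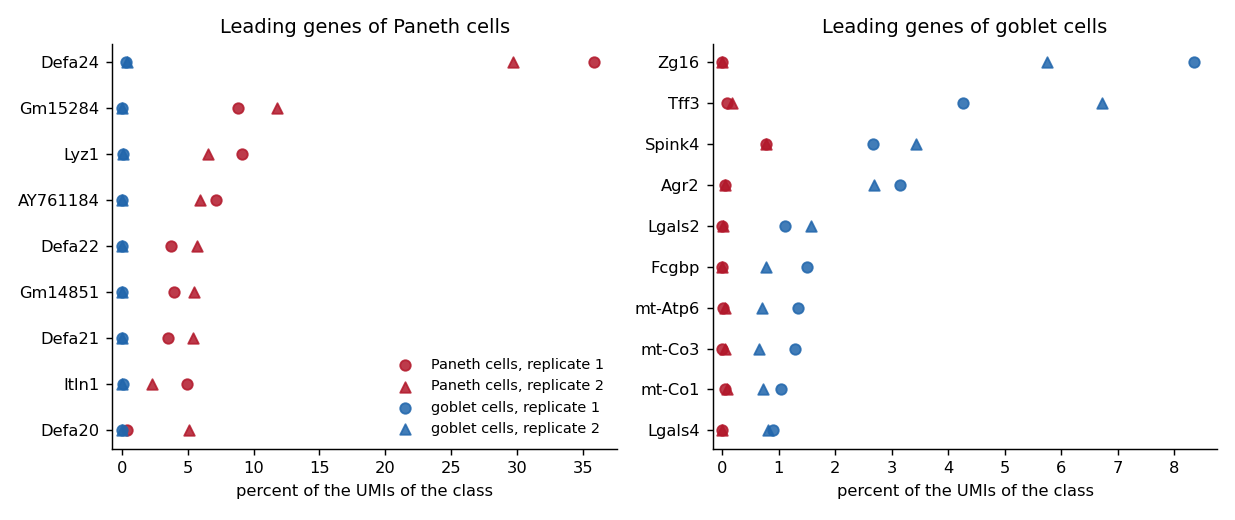
Percent of the UMIs of a class (x axis) held by leading genes of Paneth cells (left) and of goblet cells (right), 1 point per class and mouse. Defa24 reached 35.8% and 29.7% of Paneth UMIs, while Zg16, the highest goblet gene in replicate 1, reached 8.35%.

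Paneth cells were the deeper cells and yet showed fewer genes. They held a median of 44683.5 and 80820 UMIs per cell, against 13649 and 15708.5 in goblet cells, and the UMI ranges of the classes overlapped only in replicate 1. Median genes per cell were 1918 and 2156.5 in Paneth cells and 2973 and 2986.5 in goblet cells. With 3.75% and 4.53% of the annotated cells, Paneth cells gave 7.99% and 19.7% of the UMIs of their libraries. Goblet cells were 13.3% and 11.6% of cells and gave 8.59% and 10.1% of UMIs. A set of 23 genes that each reached 1% of a Paneth or goblet sum, called dominant here, held 86.3% and 86.7% of Paneth UMIs and 25.3% and 23.6% of goblet UMIs. Outside these genes a Paneth cell held 6178 and 10778 UMIs on average and a goblet cell 10206 and 12391. The mean Paneth cell thus had 3.30 and 4.99 times the UMIs of the mean goblet cell, but 0.605 and 0.870 times the UMIs outside the dominant genes. The authors kept cells of at least 1500 genes, and the lowest Paneth cells had 1506 and 1557.

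**Figure D2:**
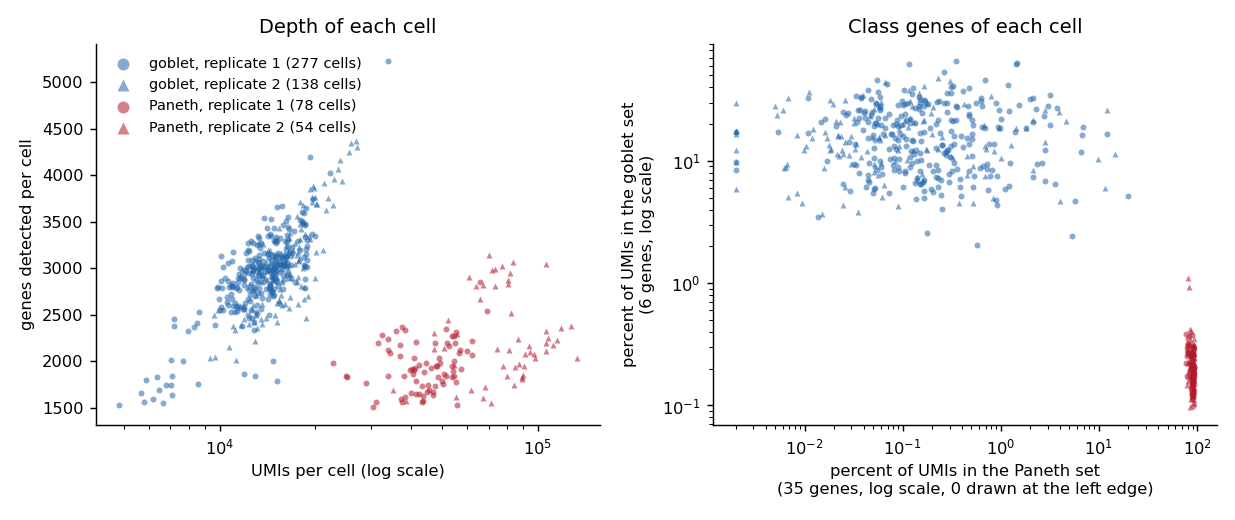
Each point is 1 annotated cell, by UMIs and genes detected (left) and by the percent of its UMIs in 35 Paneth genes and in 6 goblet genes (right, log axes). Paneth cells had a median of 44683.5 and 80820 UMIs but fewer genes than goblet cells, and no Paneth cell had under 77.1% of its UMIs in the Paneth set.

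The cells also separated one by one. A Paneth set of 35 genes (the 28 defensins with Lyz1, Ang4, Mmp7, Itln1, Mptx1, Mptx2 and Clps) held 77.1% to 93.2% of the UMIs of a Paneth cell in replicate 1, with a median of 89.6%, and 79.2% to 94.3% in replicate 2, with a median of 92.1%. In goblet cells its median was 0.155% and 0.0602%, and the highest goblet cell had 19.6% in replicate 1 and 14.5% in replicate 2. No cell lay between these values. A goblet set of 6 genes (Muc2, Tff3, Agr2, Fcgbp, Clca1 and Zg16) held a median of 16.4% and 14.2% of goblet UMIs and 0.204% and 0.211% of Paneth UMIs. Since the authors named the classes from expression of the same cells, these values and the tests below describe how far the annotated classes stand apart.

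Paneth and goblet sums differed at 1970 of 8676 genes tested (22.7%), of which 921 (10.6%) were higher in Paneth cells and 1049 (12.1%) higher in goblet cells (edgeR quasi-likelihood test, Benjamini-Hochberg adjusted p under 0.05). The sign was the same in both mice for 1962 of the 1970. Log2 fold changes are Paneth minus goblet throughout. They are scaled with TMM factors, which equate the bulk of genes between sums, unless another scale is named. The factors were 0.163 and 0.123 for Paneth and 1.06 and 0.992 for goblet sums. The median over all genes was -0.05 with these factors. Scaled by UMI totals it was -2.88, a shift of -2.84, and 82 genes were then higher in Paneth cells against 8405 higher in goblet cells. With totals outside the 23 dominant genes the median was -0.42 and the counts were 520 and 2084. The share of calls that were higher in Paneth cells moved with it, from 46.8% to 0.966% and 19.97%. All 1049 goblet calls kept their direction under UMI totals, while 130 of the 921 Paneth calls did. On the scale of UMIs per cell, 614 of the 921 were higher in Paneth cells in both mice, 74 were higher in goblet cells in both, and all 1049 goblet calls were higher in goblet cells in both. A Paneth call therefore gives a gene's place among the other genes of its class, and the value under UMI totals is given where it turns the sign. Among the genes chosen by rule and named in the text, the calls of Areg, Casp4, Fth1, Galnt12, Il18, Lypd8, Lyz1, Mptx1, Mt1, Mt2, mt-Nd4l, Rab27b, Rpn1, Sytl1, Sytl4, Tff3 and Zfp36 were lost without the mouse term (adjusted p from 0.0558 to 0.828). With cells thinned to 5000 UMIs those of Ccnb2, Cenpa, Dll1, Efnb2, Galnt12, Mt1, Mt2, mt-Nd4l, Pdia4, Rpn1, St3gal4, St3gal6, Sytl1, Tff3 and Zfp36 were lost (0.0566 to 0.734), and with the DESeq2 Wald test those of AY761184, Casp4, Gm7849, Lyz2, mt-Nd4l and Sytl4 (0.066 to 0.0874).

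**Figure D3:**
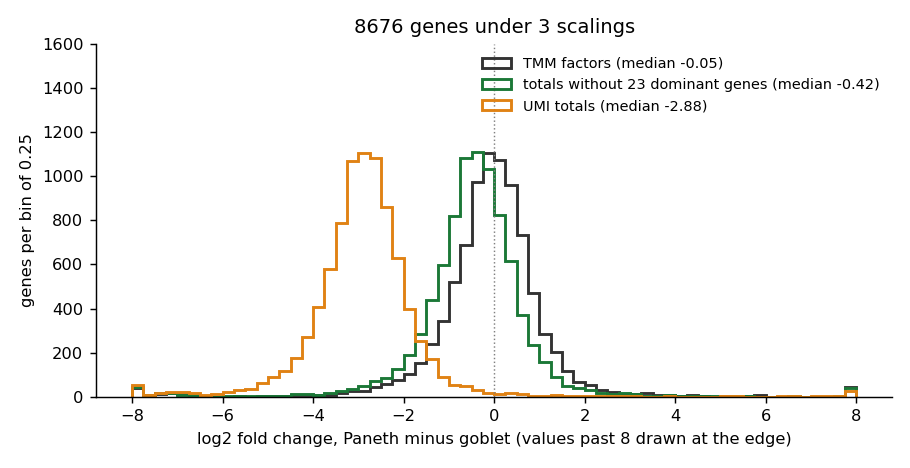
Number of genes (y axis) by log2 fold change, Paneth minus goblet (x axis), for 8676 genes under 3 scalings. The median was -0.05 with TMM factors, -0.42 with totals that leave out the 23 dominant genes, and -2.88 with UMI totals.

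Granule genes gave the widest separation. Of 26 tested members of the list of Paneth granule antimicrobials (84.6% called, against 22.7% of all genes), 21 were higher in Paneth cells and 1 in goblet cells. The median log2 fold change was 9.28 (9.04 with genes at 0 in a class set to their bound), against -0.05 for all genes. All 21 stayed above 0 under UMI totals, where the median was 6.34. Several of these genes mark Paneth cells, so the count restates the annotation. Lyz1 (chromosome 10, minus strand) had 4115 and 5312 UMIs per Paneth cell and 9.58 and 15.9 per goblet cell. Its log2 fold change was 9.21 (SE 2.39, adjusted p = 0.025, and 0.0601 without the mouse term). Lyz2, a closely related lysozyme gene of myeloid cells that can share reads with Lyz1, had 104 and 270 UMIs in Paneth cells and 1 and 0 in goblet cells. Ang4, an antimicrobial ribonuclease, had 479 and 848 UMIs per Paneth cell and 0.491 and 1.28 per goblet cell (log2 fold change 10.4, SE 1.39, adjusted p = 0.00141). Mmp7, the protease that activates mouse alpha-defensins, had 123 and 119 UMIs per Paneth cell. Goblet cells held 4.81 and 3.33, and the log2 fold change of 5.75 (SE 0.741, adjusted p = 0.000649) was among the smaller ones of the granule genes.

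Other secreted products followed the same order of levels only in part. Itln1 had 2235 and 1875 UMIs per Paneth cell and 16.3 and 8.17 per goblet cell (log2 fold change 8.35, SE 1.75, adjusted p = 0.0125). The colipase gene Clps (7.98) and the pancreatic-type lipase gene Pnliprp2 (9.42) were higher in Paneth cells. Clps had 265 and 497 UMIs per Paneth cell against 2.6 and 2.46 per goblet cell. The pentraxins Mptx2 and Mptx1 differed in direction. Mptx2 had 481 and 763 UMIs per Paneth cell and 0.0975 and 0 per goblet cell, whereas Mptx1 had 3 and 15 UMIs in all Paneth cells and 58 and 266 in goblet cells (log2 fold change -1.97, adjusted p = 0.000189). Guca2b, which encodes uroguanylin, was higher in Paneth cells (3.57, adjusted p = 0.0133), while Guca2a, which encodes guanylin, did not pass the test (-0.62, adjusted p = 0.661). Reg3g had 30.4 and 20.4 UMIs per Paneth cell and 7.57 and 3.29 per goblet cell and did not pass (adjusted p = 0.0603). Reg3b, its relative in bacterial defence, had no UMI in Paneth cells of either mouse and 6.82 and 2.30 UMIs per goblet cell, and did not pass either (adjusted p = 0.144).

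The alpha-defensins, small peptides that disrupt bacterial membranes, made up 71.4% and 78.1% of Paneth UMIs and 0.373% and 0.400% of goblet UMIs. Of the 28 members, 27 had UMIs in Paneth cells in each mouse, and 21 and 11 had UMIs in goblet cells. Defa22, whose upstream sequence is printed above, had 1683 and 4632 UMIs per Paneth cell and 157 and 0 UMIs in all goblet cells (log2 fold change 16.1, SE 2.31, adjusted p = 0.00206). Gm15284 had 3963 and 9529 UMIs per Paneth cell and 302 and 0 UMIs in goblet cells (15.9, SE 2.92, adjusted p = 0.00692). Within replicate 1, where goblet cells held UMIs of both genes, the log2 fold changes were lower, at 12.5 for Defa22 and 12.8 for Gm15284. The fitted sizes therefore depend on the 0 in goblet cells of replicate 2. Size and test did not go together for the most abundant members. Defa24 had 47.0 and 59.7 UMIs per goblet cell against its 16126 and 23988 per Paneth cell, yet its log2 fold change of 9.36 had an SE of 3.42 and an adjusted p of 0.0882. The SE comes from the spread over all 9 epithelial types, and with the 4 Paneth and goblet sums alone the adjusted p was 0.0022. Gm14851 likewise had an adjusted p of 0.0633 in the fit of 9 types and 3.16e-09 with the 4 sums. The 4 sums leave 1 residual degree of freedom, so they say little about a gene's own spread, and their p-values do not replace those of the main fit. Near-identical family members share reads, so the counts of single members are uncertain, and how far this lowers or moves the family total was not tested.

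The mix of defensins differed between the 2 Paneth populations, without a test because each mouse is 1 sample. Of 23 members that reached 100 CPM in Paneth cells of either mouse, 8 were over 2-fold higher in replicate 2, 2 were over 2-fold higher in replicate 1 and 13 lay within 2-fold. Defa20 held 0.393% of Paneth UMIs in replicate 1 and 5.14% in replicate 2, and Gm15308 stood at 0.194% and 1.52%. Gm15299 was the reverse, with 1.46% and 0.0927%, as was Gm10104 with 0.699% and 0.120%. In goblet cells Defa24 gave 92.2% and 92.1% of the family's UMIs, against 50.1% and 38.0% in Paneth cells.

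Of 19 tested mucus components (52.6% called, against 22.7% of all genes), 10 were higher in goblet cells, 0 were higher in Paneth cells and 9 did not pass the test. The median was -1.97 (-4.82 under UMI totals). Of the 26 list members in the matrices, 8 had no UMI in the Paneth cells of replicate 1 and 5 had none in those of replicate 2, against 4 and 3 in goblet cells. The 3 with the lowest log2 fold changes, Zg16, Clca1 and Fcgbp, were near 0 in Paneth cells. Zg16 had 1139.8 and 931 UMIs per goblet cell and none in 78 and 54 Paneth cells. Against a floor of 3 counts over both Paneth sums it was at least 26301-fold lower in Paneth cells (adjusted p = 0.0145). Clca1, a mucus-processing metalloprotease, had 33.2 and 26.1 UMIs per goblet cell and 0 and 6 UMIs in all Paneth cells (log2 fold change -8.49, adjusted p = 0.000254). Fcgbp, a mucin-linked scaffold protein, had 205 and 125 UMIs per goblet cell and 0 and 83 UMIs in Paneth cells (-6.98, adjusted p = 0.00882). That call was lost with the 4 sums alone (adjusted p = 0.44). An exact 0 for so abundant a transcript stands beside a stated removal of free RNA by the authors, and what part that step had was not tested.

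The classical goblet genes Muc2, Tff3, Agr2 and Spink4 were present in nearly every Paneth cell. Muc2 had UMIs in 100% of Paneth cells of both mice, at a median of 30.5 and 20.5 UMIs, and in goblet cells at a median of 118 and 55.5. Enterocytes, which should lack it, held a Muc2 UMI in 1.07% and 5.76% of cells, at median depths of 16975 and 13405 UMIs against 44683.5 and 80820 in Paneth cells. The levels were 725 and 251 CPM in Paneth sums and 9526 and 4044 CPM in goblet sums. On the TMM scale Muc2 did not pass the test (log2 fold change -1.001, SE 0.759, adjusted p = 0.411), whereas it did with the 4 sums alone (-0.98, adjusted p = 0.0409) and under UMI totals (-3.85, adjusted p = 0.00254). Tff3 had 35.7 and 137 UMIs per Paneth cell and 581 and 1089.7 per goblet cell (-2.65, SE 0.808, adjusted p = 0.0479, and 0.0963 without the mouse term). Agr2 had 24.4 and 41.7 UMIs per Paneth cell and 430.5 and 435 per goblet cell. Its log2 fold change was -2.81 with an adjusted p of 0.328, and 7.84e-05 with the 4 sums alone. Spink4 was close per cell in the 2 classes, at 348 and 623 UMIs per Paneth cell and 365 and 556 per goblet cell, and the mice differed more than the classes did. It did not pass the test (0.88, SE 1.27, adjusted p = 0.689, and -2.001 under UMI totals, adjusted p = 0.16). Smaller mucus-associated genes were higher in goblet cells, among them Bcas1 (-4.00), the tryptase Tpsg1 (-2.92), the gut calpain Capn9 (-2.36), the kallikrein Klk1 (-1.97, a call lost with the 4 sums alone, adjusted p = 0.355) and Lypd8 (-1.80), which keeps flagellated bacteria from the epithelium.

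The enzymes that build mucin glycans split between the classes. Of 24 tested transferases (62.5% called, against 22.7% of all genes), 10 were higher in goblet cells and 5 in Paneth cells. The median was -0.79 (-3.64 under UMI totals). Chst4, a sulfotransferase of mucin-type glycans, had 1 and 0 UMIs in Paneth cells and 467 and 233 in goblet cells (adjusted p = 4.61e-10), a ratio of 124 with a counting interval of 22.2 to 4918. The sialyltransferases St3gal6 (-4.54) and St3gal4 (-4.07) were also higher in goblet cells. Of the others that were higher there, Galnt3, Galnt7 and Galnt12 start O-glycans and C1galt1 and Gcnt3 extend them. Paneth cells were higher for other sialyltransferases, St6galnac4 (3.44, 19 and 11 UMIs against 14 and 2) and St3gal1 (2.60, -0.24 under UMI totals), and for B4galt1 (1.61, -1.27 under UMI totals). Different sialyltransferases were therefore called in opposite directions within the same fit.

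Of 30 tested transcription factors of the secretory lineage, 12 were higher in goblet cells, 4 were higher in Paneth cells and 14 did not pass the test. That is 53.3% called, against 22.7% of all genes, and the median was -0.49 (-3.34 under UMI totals). Atoh1, Gfi1, Spdef, Foxa3 and Xbp1 are named for their known roles, with their values already seen. Atoh1, which commits cells to the secretory fate, had 1.04 and 1.02 UMIs per Paneth cell and 2.89 and 3.30 per goblet cell (-0.73, SE 0.217, adjusted p = 0.0141). Spdef (-0.82, adjusted p = 0.0432) and Gfi1 (-1.56, adjusted p = 0.0402), which act after it, were lower in Paneth cells by similar or larger steps. Foxa3 (0.11, adjusted p = 0.781) and Xbp1 (0.01, adjusted p = 0.985), a driver of ER growth, did not pass. Klf4, a factor of goblet cell differentiation, had 0.821 and 0.926 UMIs per Paneth cell and 7.13 and 6.19 per goblet cell (-2.09, SE 0.252, adjusted p = 1.25e-06). The BMP-induced Id1 and Id3 had 2 and 2 and 5 and 1 UMIs in all Paneth cells and 579 and 221 and 1055 and 550 UMIs in goblet cells. Their log2 fold changes were -5.07 and -5.55.

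The regulators that were higher in Paneth cells included Bhlha15 (Mist1), which organises the secretory apparatus of exocrine cells, with 1.21 and 1.33 UMIs per Paneth cell and 0.173 and 0.355 per goblet cell (3.22, SE 0.271, adjusted p = 4.9e-10). Sox9, a Wnt target that Paneth cells need, had 1.35 and 1.91 UMIs per Paneth cell and 0.863 and 0.717 per goblet cell (1.83, adjusted p = 1.12e-06, and -1.02 under UMI totals). Klf15 had 27 and 17 UMIs in Paneth cells and 2 and 1 in goblet cells (adjusted p = 5.32e-08), a ratio of 82.6 with a counting interval of 26.5 to 416. When every cell was thinned to 3000 UMIs outside the dominant genes, with no cell too shallow, Bhlha15 was seen in 43.6% and 29.6% of Paneth cells and in 6.14% and 13.0% of goblet cells. Atoh1 was seen in 28.2% and 11.1% of Paneth cells and 50.9% and 51.4% of goblet cells, and Klf4 in 26.9% and 24.1% against 83.4% and 69.6%. Before thinning the shares in Paneth and goblet cells were 65.4% and 63.0% against 15.2% and 29.0% for Bhlha15, 60.3% and 55.6% against 86.6% and 89.9% for Atoh1, and 52.6% and 61.1% against 98.2% and 97.1% for Klf4. The thinned shares of Bhlha15 and Atoh1 in enterocytes were 0% in both mice, and those of Klf4 12.9% and 10.2%.

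**Figure D4:**
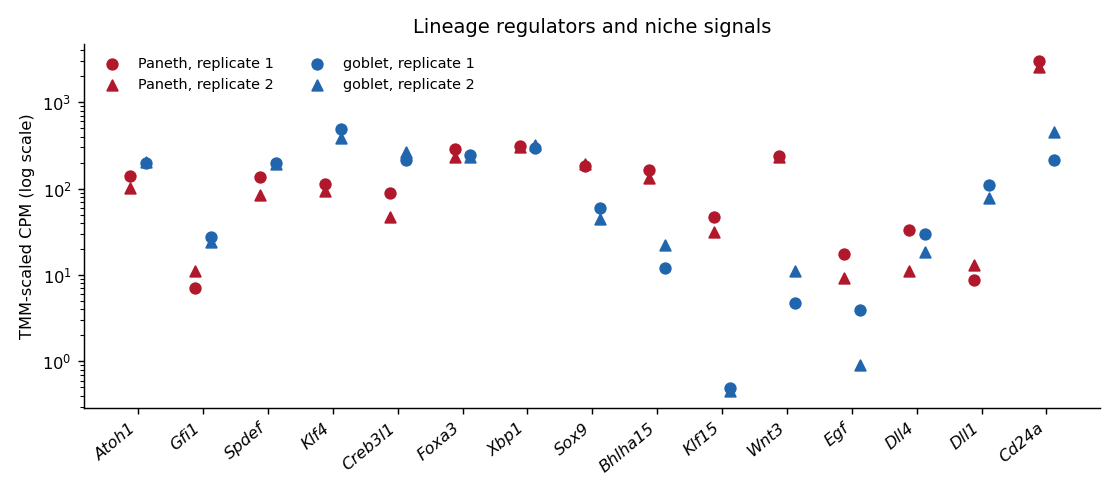
TMM-scaled CPM (log axis) of 15 lineage regulators and niche genes in each Paneth and goblet sum. Wnt3 and Bhlha15 were higher in Paneth sums (log2 fold changes 5.02 and 3.22) and Klf4 and Dll1 higher in goblet sums (-2.09 and -3.11), and of the genes drawn Sox9, Egf, Foxa3 and Xbp1 turn sign under UMI totals (-1.02, -0.49, -2.74 and -2.84).

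Signals to the stem cell niche were divided. Of 21 tested niche ligands and receptors (47.6% called, against 22.7% of all genes), 6 were higher in Paneth cells and 4 in goblet cells. The median was 0.09 (-2.78 under UMI totals). Wnt3, the Wnt ligand that Paneth cells supply to stem cells, had 138 and 126 UMIs in Paneth cells and 19 and 25 in goblet cells. That is 1.77 and 2.33 UMIs per Paneth cell against 0.0686 and 0.181 per goblet cell, with 5.02 as the log2 fold change (SE 0.262, adjusted p = 1.4e-14, and 2.17 under UMI totals). After thinning it was seen in 61.5% and 46.3% of Paneth cells, 2.17% and 4.35% of goblet cells and 0% of enterocytes, and before thinning in 83.3% and 88.9%, 5.78% and 15.2%, and 0.644% and 0.262%. Ephb3, a receptor that keeps Paneth cells at the crypt base, was higher in Paneth cells (3.59, 13 and 26 UMIs against 4 and 12), as was the surface marker Cd24a (3.28, 22.3 and 25.4 UMIs per cell against 3.10 and 7.25). Egf was higher on 10 and 5 UMIs against 16 and 2 (2.31, adjusted p = 0.0187, and -0.49 under UMI totals).

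The niche genes higher in goblet cells were Dll1, Efnb2, Efnb1 and Areg. Dll1, a Notch ligand, had 5 and 7 UMIs in Paneth cells and 441 and 173 in goblet cells (-3.11, SE 0.41, adjusted p = 2.17e-06), and was seen after thinning in 1.28% and 1.85% of Paneth cells and 37.9% and 19.6% of goblet cells. The thinned Paneth share is 1 cell in each mouse, and in enterocytes the thinned share was 2.79% and 2.62%. Before thinning Dll1 was seen in 6.41% and 13.0% of Paneth cells, 72.9% and 63.0% of goblet cells and 16.3% and 8.12% of enterocytes, so that Paneth cells were below enterocytes in replicate 1 and above them in replicate 2. Dll4, the other Notch ligand tested, had 19 and 6 UMIs in Paneth cells and 121 and 41 in goblet cells and did not pass (-0.16, adjusted p = 0.841). The ephrins Efnb2 and Efnb1 repel Eph-bearing cells. Efnb2 had no UMI in Paneth cells and 112 and 45 in goblet cells. With that 0 taken as a counting result, Efnb2 was at least 9.295-fold lower in Paneth cells (adjusted p = 1.19e-05). Efnb1 had a log2 fold change of -1.24. Areg, an EGF receptor ligand, had 0 and 1 UMIs in Paneth cells and 164 and 13 in goblet cells (adjusted p = 0.00499). Stem cell markers were low in both classes, and 4 of 6 tested were higher in Paneth cells and 0 in goblet cells (median 2.33, -0.55 under UMI totals). That is 66.7% called, against 22.7% of all genes. Lgr5, the receptor that defines crypt base stem cells, had 24 and 17 UMIs in Paneth cells and 4 and 0 in goblet cells (5.87, adjusted p = 8.22e-09).

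Secretory machinery differed gene by gene rather than as a block. Of 49 tested genes of ER folding and the unfolded protein response, 11 were higher in Paneth cells, 15 were higher in goblet cells and 23 did not pass the test. That is 53.1% called, against 22.7% of all genes. The median was -0.04 (-2.89 under UMI totals, where none of the 11 stayed above 0). Genes that were higher in goblet cells included Hspa5 and Calr. Hspa5 (BiP), the main ER chaperone, had 4.46 and 3.26 UMIs per Paneth cell and 16.4 and 13.2 per goblet cell (-1.08, adjusted p = 1.87e-05). The lectin chaperone Calr had 4.47 and 4.35 against 20.4 and 20.2 (-1.35, adjusted p = 1.15e-06). The disulfide isomerases Pdia4 (-2.14), Pdia5 (-1.93) and Txndc5 (-1.74) were higher in goblet cells too. Genes that were higher in Paneth cells, each with the sign turned under UMI totals, included the ER oxidase Ero1lb (2.69, and -0.15), Edem1 of ER-associated degradation (1.48, and -1.37), the stress sensor Ern1 (1.47, and -1.37) and the isomerase P4hb (1.25, and -1.60). Per cell, P4hb had 10.5 and 13.3 UMIs in Paneth cells and 7.70 and 10.3 in goblet cells.

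Translocation into the ER was split as well, with 9 of 32 tested genes higher in Paneth cells, 8 higher in goblet cells and 15 that did not pass the test. That is 53.1% called, against 22.7% of all genes, and the median was 0.12 (-2.73 under UMI totals). Srp9, a part of the signal recognition particle (1.26, -1.60 under UMI totals), and Spcs3, a subunit of the signal peptidase (1.34, -1.49), were higher in Paneth cells. Ostc (-1.32) and Rpn1 (-0.79), subunits of the oligosaccharyltransferase that attaches N-glycans, and Ssr2 (-1.87) were higher in goblet cells. In ER to Golgi and granule traffic, 9 of 39 tested genes were higher in Paneth cells and 5 in goblet cells (median 0.18, -2.66 under UMI totals). Calls in either direction were 35.9% of that list and 22.7% of all genes. Over all genes 10.6% were higher in Paneth cells and 12.1% in goblet cells. Tmed6, a cargo receptor of the p24 family, had the largest value of the list. It had 8.64 and 10.0 UMIs per Paneth cell and 0.419 and 0.442 per goblet cell, which put the log2 fold change at 5.28 (SE 0.199, adjusted p = 9.77e-18, and 2.43 under UMI totals). The remaining 8 genes that were higher in Paneth cells lay at or below 1.09, and all 8 turned sign under UMI totals. The granule effector genes Sytl4 (3 UMIs in Paneth and 97 in goblet cells, a ratio of 5.74 with an interval of 1.91 to 28.3) and Rab27b (-1.28) were higher in goblet cells, while Sytl1 was higher in Paneth cells (1.09, -1.77 under UMI totals).

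**Figure D5:**
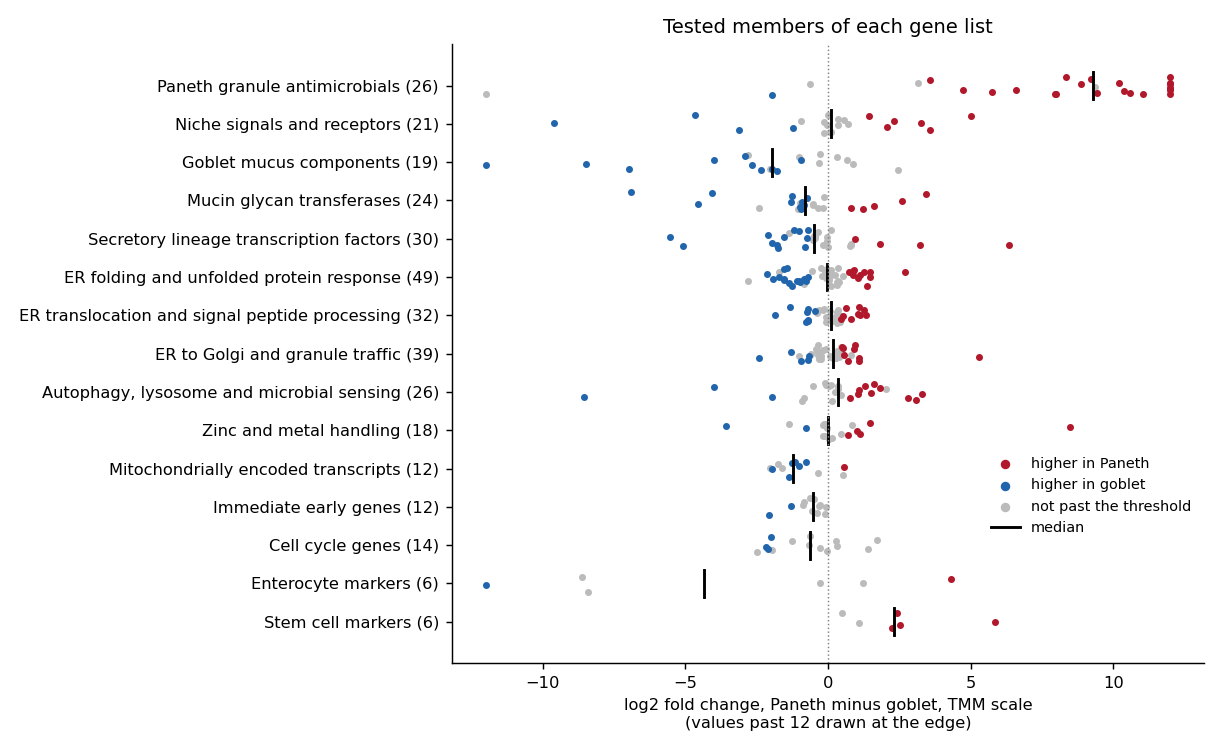
Log2 fold changes, Paneth minus goblet on the TMM scale (x axis), of the tested members of 15 gene lists, with the number tested in brackets and a bar at the median. The granule list had a median of 9.28 and the mucus list of -1.97, and the medians of the niche, translocation, traffic, autophagy and stem lists turn sign under UMI totals.

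Of 26 tested genes of autophagy, lysosomes and microbial sensing, 10 were higher in Paneth cells, 3 were higher in goblet cells and 13 did not pass the test. That is 50% called, against 22.7% of all genes, and the median was 0.35 (-2.50 under UMI totals). Lamp2, a lysosomal membrane protein, had 3.96 and 2.93 UMIs per Paneth cell and 0.769 and 0.703 per goblet cell (3.09, SE 0.219, adjusted p = 1.79e-11). The lysosomal protease gene Ctsl (3.30) and the autophagy gene Atg7 (2.81, -0.04 under UMI totals) were higher in Paneth cells as well. Of the 10, 9 had more UMIs per Paneth cell than per goblet cell in both mice. The 3 genes higher in goblet cells were inflammasome genes, Il18, Casp1 and Casp4, while the inflammasome sensor Nlrp6 did not pass (2.03, adjusted p = 0.0924). Il18, a cytokine, had no UMI in Paneth cells and 69 and 14 in goblet cells, and Casp1, which activates it, had 6 and 0 against 358 and 181 (-4.01, adjusted p = 4.03e-08). Casp4 had 1 and 4 UMIs against 101 and 20 (-1.97, adjusted p = 0.0447), and this call was lost with the 4 sums alone (adjusted p = 0.0526), without the mouse term (0.112) and with the DESeq2 Wald test (0.066).

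Metal handling differed at 7 of 18 tested genes (38.9%, against 22.7% of all genes), with 5 higher in Paneth cells and 2 in goblet cells. The median was near 0 (-2.86 under UMI totals). Slc30a2, a zinc exporter that loads secretory granules, had 107 and 190 UMIs in Paneth cells and 3 and 2 in goblet cells (8.48, SE 0.904, adjusted p = 0.000157, and 5.63 under UMI totals). Paneth granules are known to be rich in zinc. The metallothioneins Mt2 and Mt1, which bind zinc in the cytosol, were higher in goblet cells, with Mt2 at 1 and 4 UMIs against 109 and 178 (-3.58) and Mt1 at 0.846 and 2.15 UMIs per cell against 3.04 and 5.51 (-0.76). Ferritin heavy chain Fth1 had 38.8 and 41.0 UMIs per Paneth cell and 32.8 and 33.2 per goblet cell (1.11, -1.74 under UMI totals).

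Mitochondrially encoded transcripts were scarce in Paneth cells. They made up 0.149% and 0.272% of Paneth UMIs and 6.17% and 3.41% of goblet UMIs, or 67.2 and 220 UMIs per Paneth cell against 842 and 553 per goblet cell. Outside the dominant genes the shares were 1.08% and 2.01% against 7.87% and 4.35%. Of 12 tested (58.3% called, against 22.7% of all genes), 6 were higher in goblet cells and 1 in Paneth cells (median -1.21). The call for Paneth cells was mt-Nd4l (0.55, adjusted p = 0.0464, and -2.28 under UMI totals), with 2.17 and 0.981 UMIs per Paneth cell and 3.08 and 1.01 per goblet cell. That call was lost with the 4 sums alone (adjusted p = 0.0574), without the mouse term (0.828), with totals outside the dominant genes (0.51), with the DESeq2 Wald test (0.0806), with no filter on low counts (0.209) and after thinning (0.734). The mitochondrial share of goblet cells reached 24.3% in replicate 1, and with cells of at most 15% the goblet calls numbered 1075. Immediate early genes, which rise with dissociation and stimulation, showed 2 of 12 higher in goblet cells (Klf6, -2.05, and Zfp36, -1.31) and 0 in Paneth cells. Of 14 tested cell cycle genes, 3 were higher in goblet cells (Ccnb2, Cenpa and Hmgb2) and 0 in Paneth cells. These shares of 16.7% and 21.4% stand beside 12.1% of all genes tested that were higher in goblet cells and 22.7% called in either direction.

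Outside the lists, the 10 highest Paneth genes of at least 100 CPM in both mice were all members of the defensin family under older names, such as Gm15315, Gm15292 and Gm7849. The 10 lowest included Scin, Clec2h, Gsta4 and Krt20. Scin, an actin-severing protein, had no UMI in Paneth cells and 4.26 and 4.37 UMIs per goblet cell, at least 105.6-fold lower in Paneth cells (adjusted p = 4.61e-10). Clec2h and Gsta4 were likewise at 0 in Paneth cells, at least 63.0-fold and 57.0-fold lower. Krt20, a keratin of differentiated epithelium, had 1 and 1 UMIs in Paneth cells and 948 and 579 in goblet cells, a ratio of 136 with a counting interval of 37.5 to 1121. S100a6 and Rgs2 had 1 UMI each in Paneth cells, for ratios of 909.6 (163 to 35933) and 138 (24.7 to 5458). Anxa2, Ms4a8a, Tm4sf5 and Lgals4 made up the rest, with log2 fold changes of -5.03 to -6.31. Lgals4, an epithelial galectin, had 0.615 and 4.26 UMIs per Paneth cell and 122 and 131 per goblet cell. Of 6 tested enterocyte markers (33.3% called, against 22.7% of all genes), 1 was higher in goblet cells, 1 was higher in Paneth cells and 4 did not pass the test. Fabp2, an intestinal fatty acid binding protein, had no UMI in Paneth cells and 33.4 and 38.2 UMIs per goblet cell, at least 859-fold lower (adjusted p = 8.7e-16). The brush border peptidase Anpep was higher in Paneth cells (4.31, 45 and 32 UMIs against 13 and 9). Folds given here as at least take a 0 as a counting result, and what part the removal of free RNA had in these zeros was not tested.

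Genes abundant in other cell types were compared as well. The 100 genes most abundant in the other epithelial types held 3.36% and 4.08% of Paneth UMIs and 46.7% and 48.5% of goblet UMIs. This set was chosen by abundance and can hold genes particular to other types. Of the 100, 5 and 4 had no UMI in Paneth cells and 2 and 1 had none in goblet cells. On the TMM scale 35 of the 98 tested were higher in goblet cells and 2 in Paneth cells, with a median of -0.37. Over all genes tested 12.1% were higher in goblet cells and 10.6% in Paneth cells. Eef1a1, a translation factor, had 32.7 and 44.9 UMIs per Paneth cell and 81.0 and 86.4 per goblet cell and did not pass the test (-0.29, adjusted p = 0.221). Actb, beta-actin, had 1.82 and 6.70 UMIs per Paneth cell and 27.9 and 30.2 per goblet cell and was higher in goblet cells (-2.06, adjusted p = 0.0015). Less of this RNA in a Paneth cell and a smaller captured part of it cannot be told apart.

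Paneth transcripts reached some goblet cells. Defa24 had a UMI in 78.0% and 17.4% of goblet cells (whose median UMIs were 13649 and 15708.5), against 0.859% and 0% of enterocytes (16975 and 13405), where 0 of 382 cells allows a share of up to 0.785%. The types nearer to goblet cells lay between or at 0. Defa24 had a UMI in 3.09% and 10.7% of goblet progenitors, 19.4% and 0% of secretory progenitors and 15.1% and 0% of stem cells. The UMIs in goblet cells were uneven. The 5 goblet cells with most Defa24 held 45.0% and 77.8% of it, and the maximum was 2804 and 2134 UMIs in a cell. At least 1% of the UMIs lay in the Paneth set in 32 of 277 goblet cells (11.6%) and in 15 of 138 (10.9%), and at least 5% in 7 and 4. The make-up of these transcripts was not that of Paneth cells. For every 100 Lyz1 UMIs, Paneth cells held 2.98 and 2.23 UMIs of Mmp7 and goblet cells 50.2 and 21.0. For Gm15284 the values were 96.3 and 179 in Paneth cells and 11.4 and 0 in goblet cells, while for Defa24 they were 392 and 452 against 490 and 377. Mmp7 had a UMI in 53.8% and 50.0% of goblet cells, 43.8% and 36.9% of goblet progenitors and 0.644% and 0.262% of enterocytes. Goblet progenitors held 59.8 and 37.1 UMIs of Mmp7 for every 100 of Lyz1. The high share of Mmp7 was therefore not particular to goblet cells. The authors called and removed doublets, and the part of free RNA, of its removal and of doublets in these goblet values was not tested.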

How the data were processed

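Single-cell RNA-seq was performed on jejunal crypts of 2 375KO mice, with 1 library per mouse. The authors aligned reads with Cell Ranger to mm10 and deposited whole-number UMI counts per gene and barcode. The submitters' processing notes name Cell Ranger 3.0.1 and Seurat 3.2.1. The methods name SoupX for taking out ambient RNA without saying in which files. They called doublets with scDblFinder, removed cells under 1500 genes or over 25% mitochondrial reads (the percent is deposited per cell) and named clusters after integration. The deposited sctransform score tables were not used. The whole-study tables also hold 2937 cell columns and 6059 doublet-table rows of another series, which were not used.

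Annotations were joined to the library matrices of 27998 genes by cell order, and UMI totals and gene numbers of the study's count table were equal to the annotation's in 3275 of 3275 cells. The library matrices held a median of 1 UMI more per cell than that table. Counts were summed per mouse and annotated type, the mouse being the replicate. The 18 sums of 9 epithelial types were fitted with edgeR 4.0.16 (quasi-likelihood, robust, TMM, cell type and mouse as terms, residual df 8), and Paneth was contrasted with goblet. Genes were kept by filterByExpr on the 4 Paneth and goblet sums. Tests were two-sided, with Benjamini-Hochberg adjustment over 8676 genes and a threshold of 0.05. SE is the log2 fold change over the square root of F. The mouse term pairs the sums because same-numbered sums come from the same animal. P-values rest on 2 animals and on a spread shared by 9 types. With the 4 sums alone the residual df is 1. Count intervals are exact at 95%, a count of 0 allows up to 3 counts, and both cover counting error only. Bounds for genes at 0 use 3 counts over both sums of the class, on the TMM scale. They do not hold where a 0 was left by the removal of free RNA. The scripts were checked on simulated data.

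Members, the 19 gene lists and the tests were chosen with earlier results of these data known. Named genes are the 10 most abundant of each class, the 3 highest and 3 lowest called members of each list, the 10 highest and 10 lowest called genes in no list with at least 100 CPM in the higher class of both mice, and the markers. Other genes were named after their values were seen. Among marker lists, the 1 enteroendocrine gene tested (Sct) and the 1 lymphocyte gene (Ccl5) did not pass, the 1 stroma and blood gene tested (Lyz2) was higher in Paneth cells, and 0 tuft genes were tested. Alternatives were the 4 sums alone, no mouse term, 3 other scalings, DESeq2 1.42.0, no filter, at most 15% mitochondrial reads, cells thinned to 5000 UMIs, other weightings of shares and each replicate left out. Promoters came from RefSeq (GRCm38.p6), with coordinates counted from 1. A gene among the leading Paneth genes is not reported here by itself, and its counts are part of the sums and totals.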

Additional observations from a re-analysis of the deposited data

Results flagged for a closer look

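Barcodes outside the annotated cells also carried Paneth transcripts, a signal in data that the comparisons above do not use. In replicate 1, 269 barcodes had at least 50% of their UMIs in the Paneth set, of which 78 were the annotated Paneth cells and 191 (71.0%) were not kept by the authors. In replicate 2, 83 barcodes reached that share and 29 (34.9%) were not kept. Of the 191, 118 had fewer than 1500 genes, 81 were called doublets and 2 exceeded 25% mitochondrial reads, where a barcode can have more than 1 of these marks. Of the 29, 14 had fewer than 1500 genes and 16 were called doublets. The barcodes not kept had a median of 1094 genes and 11744 UMIs in replicate 1 and of 1570 genes and 36795 UMIs in replicate 2. What these barcodes are was not tested, and the Paneth cells described above are the part of this signal that passed the limits on genes and doublets.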

How the results depend on the processing

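Against 1970 calls (921 higher in Paneth and 1049 in goblet cells), the fit without the mouse pairing (no replicate block) gave 900 (471 and 429), UMI totals 8487 (82 and 8405) and cells thinned to 5000 UMIs 381 (149 and 232, of 3993 genes). Totals without the dominant genes gave 2604, split 520 and 2084. The 4 sums alone gave 1569, DESeq2 size factors in edgeR 1984, the DESeq2 Wald test 1882, no filter 2376 and cells of at most 15% mitochondrial reads 2012. The mean share of the 10 leading genes was 81.69% in Paneth and 24.72% in goblet cells, and moved beyond the spread of the mice to 81.18% in Paneth cells with cells weighted alike and to 22.94% in goblet cells outside mitochondrial genes. Without a replicate it was 81.53% to 81.86% and 23.84% to 25.59%.

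Under UMI totals these log2 fold changes turned negative: Atg7 (-0.039), mt-Nd4l (-2.28), Tram1 (-1.74), Sytl1 (-1.77), St3gal1 (-0.24), Spink4 (-2.001), Spcs3 (-1.49), Srp9 (-1.60), Smoc2 (-0.44), Axin2 (-0.65), B4galt1 (-1.27), Edem1 (-1.37), Sox9 (-1.02), Ero1lb (-0.15), Ern1 (-1.37), Ftl1 (-2.12), Mcfd2 (-1.76), Rgmb (-0.36), Slc39a8 (-1.39) and Fth1 (-1.74), and the medians of the autophagy (-2.50), traffic (-2.66), translocation (-2.73), niche (-2.78) and stem (-0.55) lists. Without the dominant genes in the totals the niche (-0.30), translocation (-0.25), traffic (-0.19) and autophagy (-0.022) medians were negative, as was translocation with no filter (-0.057). The zinc median was 0.70 after thinning and 0.032 to 0.30 with 1 replicate left out, and Ccl5 ranged from -2.55 to 7.89 with 1 left out. Of 115 named genes, the call or sign changed for 0 with DESeq2 size factors and at most 15% mitochondrial reads, 2 with no filter, 6 without the dominant genes, 10 with the Wald test, 11 with the 4 sums, 24 without the mouse term and 34 under UMI totals, and 19 of 95 after thinning. Depth limits genes of few UMIs, such as Egf and Klf15.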
